A study of Mus musculus with 16 samples.

Results

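The genes Huwe1, Usp9x, Atrx and Ogt are 4 of the 42917 transcribed regions obtained by merging the nuclear RNA-seq rows of the series by strand. They were chosen by name and by mm9 position, with the dense CTCF CLIP peaks on their RNAs in these same libraries already known. CLIP (UV crosslinking and immunoprecipitation with sequencing) maps where a protein touches RNA, and ChIP-seq maps where it sits on DNA. The study mapped both for CTCF in female mouse embryonic stem cells, with nuclear RNA-seq of the same cell type, and its title names the dynamics of the X chromosome as its subject. At day 3 the cells were differentiating, having grown for 3 days without LIF and detached from the dish. At day 0 they were undifferentiated, attached and kept in LIF, the cytokine that holds mouse embryonic stem cells in the undifferentiated state. All cells were hybrids: the CLIP and RNA labels give the strain as CAST/Ei x 129/Sv/Jae and the ChIP labels give 129S1/CastEiJ x 129S1. The CLIP pull-down used an anti-Flag antibody on nuclear lysates, so it reads a Flag-tagged protein, and the ChIP used an antibody to CTCF itself. The peak lists came from 2 UV-treated CLIP libraries at day 3 and 2 at day 0, from 1 ChIP library at day 3 and 2 at day 0, and from 1 RNA library per day. The CLIP libraries without UV and the ChIP inputs were not analysed here. No label says that replicates came from separate cultures. A p-value here sets a day difference against the variation between these samples, and that variation may be technical.

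CTCF binds DNA through its zinc fingers, blocks enhancers and anchors chromatin loops together with cohesin. It also binds RNA, and in female cells it acts at the X-inactivation centre, where one of the X chromosomes is chosen for silencing by Xist as stem cells differentiate. All 4 genes are X-linked, broadly transcribed and essential or important in development. Huwe1 encodes a giant HECT-type E3 ubiquitin ligase. Usp9x encodes a deubiquitinase, which removes ubiquitin. Atrx encodes a chromatin remodeller that works with Daxx to place a histone H3 variant at repeats and telomeres. Ogt encodes O-GlcNAc transferase, the enzyme that attaches a single sugar to serines and threonines of nuclear and cytoplasmic proteins.

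In mm9 the Huwe1 transcript spanned chrX:148237870-148369960 on the plus strand, 132.1 kb. Usp9x spanned chrX:12647744-12750454 on the plus strand, 102.7 kb. Atrx spanned chrX:102992856-103124861 on the minus strand, 132.0 kb. Ogt spanned chrX:98835399-98879690 on the plus strand, 44.3 kb, which makes it the shortest of the set. Each span coincided exactly with 1 merged RNA-seq region. The gene lengths in RefSeq on GRCm38 were within a few kb of these spans, at 134.6 kb for Huwe1, 102.3 kb for Usp9x, 131.8 kb for Atrx and 44.3 kb for Ogt. RefSeq places the microRNA genes Mir3113, Mirlet7f-2 and Mir98 inside Huwe1. Inside Atrx it places the small nuclear RNA genes Gm26020 and Gm23656 and the transcribed pseudogene Gm14853. The RNA rows carried no exon blocks and no gene names, so exons and introns, and markers of embryonic stem cells, were not separated here.

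The promoters of 3 of the genes are shown because the presence of CTCF at the gene starts is reported below. Each sequence is the 250 bases before the RefSeq start (GRCm38.p6), 5′ to 3′ on the gene's strand, with any CCCTC, or its reverse complement, in capitals. The start listed first is shown where RefSeq has several, and Usp9x is named only.
Huwe1 promoter, chrX:151803032-151803281, plus strand: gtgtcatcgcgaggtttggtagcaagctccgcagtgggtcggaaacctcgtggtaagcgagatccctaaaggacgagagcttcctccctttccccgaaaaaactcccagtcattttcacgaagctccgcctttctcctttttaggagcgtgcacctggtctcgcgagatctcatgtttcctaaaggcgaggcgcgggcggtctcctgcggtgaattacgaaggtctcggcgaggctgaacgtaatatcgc
Atrx promoter, chrX:105929373-105929622, minus strand: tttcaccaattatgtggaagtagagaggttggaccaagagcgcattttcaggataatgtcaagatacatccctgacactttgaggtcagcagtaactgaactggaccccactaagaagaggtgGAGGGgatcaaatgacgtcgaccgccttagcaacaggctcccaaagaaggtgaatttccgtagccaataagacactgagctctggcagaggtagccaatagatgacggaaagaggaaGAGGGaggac
Ogt promoter, chrX:101639801-101640050, plus strand: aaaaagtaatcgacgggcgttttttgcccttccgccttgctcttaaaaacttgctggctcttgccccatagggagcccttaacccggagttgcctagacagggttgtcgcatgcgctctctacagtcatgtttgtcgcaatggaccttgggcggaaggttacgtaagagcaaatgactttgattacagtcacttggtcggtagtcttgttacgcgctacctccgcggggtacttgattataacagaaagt
Both strands were searched for the core of the CTCF consensus motif and for the short CCCTC after which the protein is named. The core was in none of these windows, against 2.93% of 32851 RefSeq mouse promoter windows of the same length. CCCTC was found at 2 places in the Atrx window, 127 and 10 bases before the start. It was in neither the Huwe1 nor the Ogt window shown. The window before another RefSeq start of Ogt had 1 CCCTC, 136 bases before that start. CCCTC occurred in 60.5% of all promoter windows. The Huwe1 window was the richest in CpG of those shown, with 23 CpG and 55.6% GC, against 15 CpG and 49.6% GC for Ogt and 6 CpG and 48.4% GC for Atrx. A match describes letters only, and no match says only that these letters were not in the window.

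The CLIP lists held 106382 and 165695 peaks in the day 3 replicates and 114016 and 213181 in the day 0 replicates, with median widths of 36 to 47 bp. Replicate 2 of each day was the longer list. For that reason 2 quantities are given. The first is the peak bases per kb of the gene, a level per length that moves with the length of the list. The second is the peak bases in the gene per Mb of all peak bases in the same list, called scaled peak bases below. The ChIP lists held 41264 peaks at day 3 and 45377 and 76745 at day 0, so the second day 0 replicate was again the longest.

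All 4 RNAs were densely covered by CLIP peaks on both days. Huwe1 carried 157 and 256 peaks in the day 3 replicates, against 187 and 354 in the day 0 replicates. Usp9x carried 100 and 214 peaks at day 3, against 146 and 303 at day 0. Atrx carried 127 and 153 peaks at day 3, against 118 and 239 at day 0. The shorter Ogt carried 56 and 131 peaks at day 3, against 85 and 134 at day 0. Replicate 2 held more peaks than replicate 1 in every gene on both days, so the ranges of the days overlapped in all of them. Together the 4 genes held 0.405% and 0.458% of all listed peak bases at day 3, against 0.478% and 0.480% at day 0.

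The peaks followed the strand of the gene. Of 2762 peaks in the 4 spans, 2 lay on the opposite strand, or 0.0724% (exact Clopper-Pearson 95% interval 0.0088% to 0.2613%, which covers counting error only). Both were in the second day 3 replicate, 1 in Huwe1 and 1 in Atrx. In all regions transcribed from 1 strand, 1.44% to 1.73% of peaks lay on the opposite strand, depending on the library. The genes were chosen with dense peaks on their RNAs known, and many same-strand peaks lower this share. Their distance from the other regions is therefore a description. Outside the spans the peaks thinned out sharply. Over all 4 genes and 4 libraries together, the 10 kb before the starts held 16 same-strand peaks and the 10 kb after the ends held 3. Inside the spans each gene held 8.94 to 30.3 peaks per 10 kb in a single library.

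**Figure D1:**
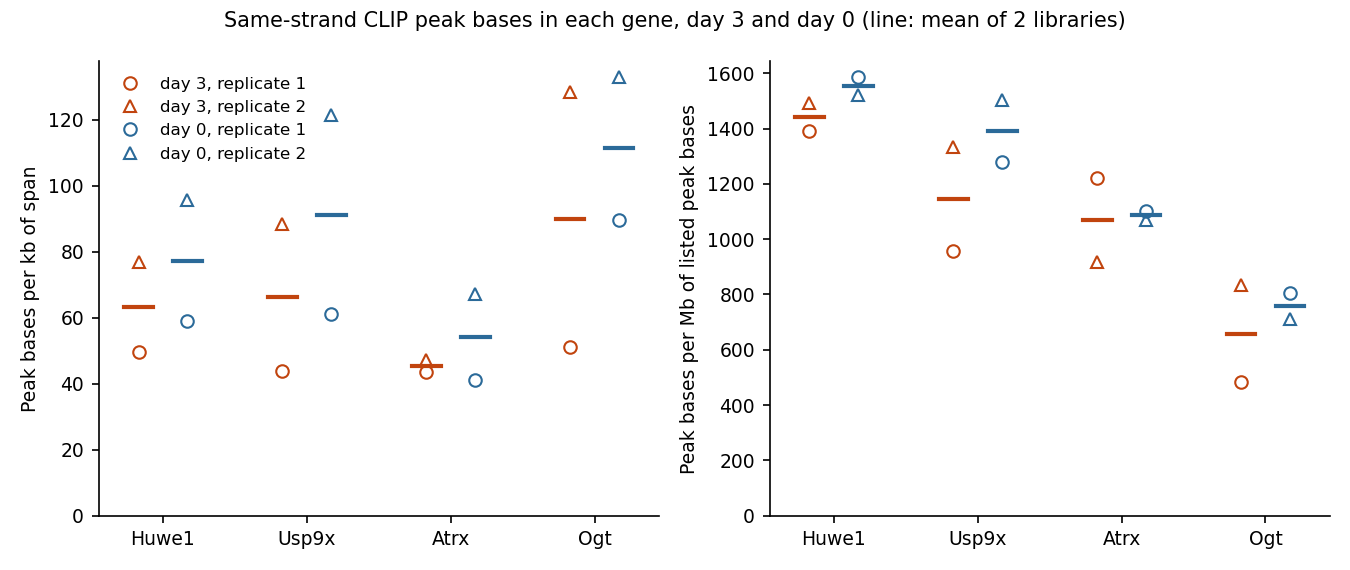
Same-strand CLIP peak bases of each gene in the 2 day 3 libraries (orange) and the 2 day 0 libraries (blue), as peak bases per kb of span on the left and per Mb of all listed peak bases on the right. Horizontal lines are the means of 2 libraries. Ogt is the densest per kb by day mean, at 89.8 (day 3) and 111.3 (day 0), while Huwe1 has the most scaled peak bases by day mean. After scaling, both day 3 points lie below both day 0 points in Huwe1, and the days overlap in the other genes.

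Per kb, Ogt was the most densely bound of the 4 RNAs by the mean of each day. It had 51.3 and 128 peak bases per kb at day 3, against 89.6 and 133 at day 0. Usp9x had 43.9 and 88.4 peak bases per kb at day 3, against 61.2 and 121 at day 0. Huwe1 had 49.7 and 76.9 at day 3, against 59.1 and 95.6 at day 0. Atrx was the least dense, with 43.6 and 47.2 at day 3, against 41.1 and 67.3 at day 0. Within each of the 4 libraries Ogt was the densest and Atrx the least dense. Usp9x stood above Huwe1 in 3 of the 4 and below it in the first day 3 replicate, with day 3 means of 66.2 ± 31.5 for Usp9x and 63.3 ± 19.2 for Huwe1 (SD, n = 2 each).

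Among transcribed regions at least 40 kb long whose FPKM reached 1, the 4 genes lay in the extreme tail of CLIP density. This is the property known when they were chosen, so their ranks are a description. Of 3945 such regions at day 3, Ogt ranked 5 from the top, Usp9x 14, Huwe1 16 and Atrx 48, by the mean of the 2 libraries. Of 4104 at day 0, Ogt ranked 9, Usp9x 14, Huwe1 22 and Atrx 61. The median region had 6.04 peak bases per kb at day 3. On the X chromosome Ogt ranked 1, Usp9x 2, Huwe1 3 and Atrx 6 of 152 such regions at day 3, and Ogt 2, Usp9x 3, Huwe1 4 and Atrx 9 of 153 at day 0.

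**Figure D2:**
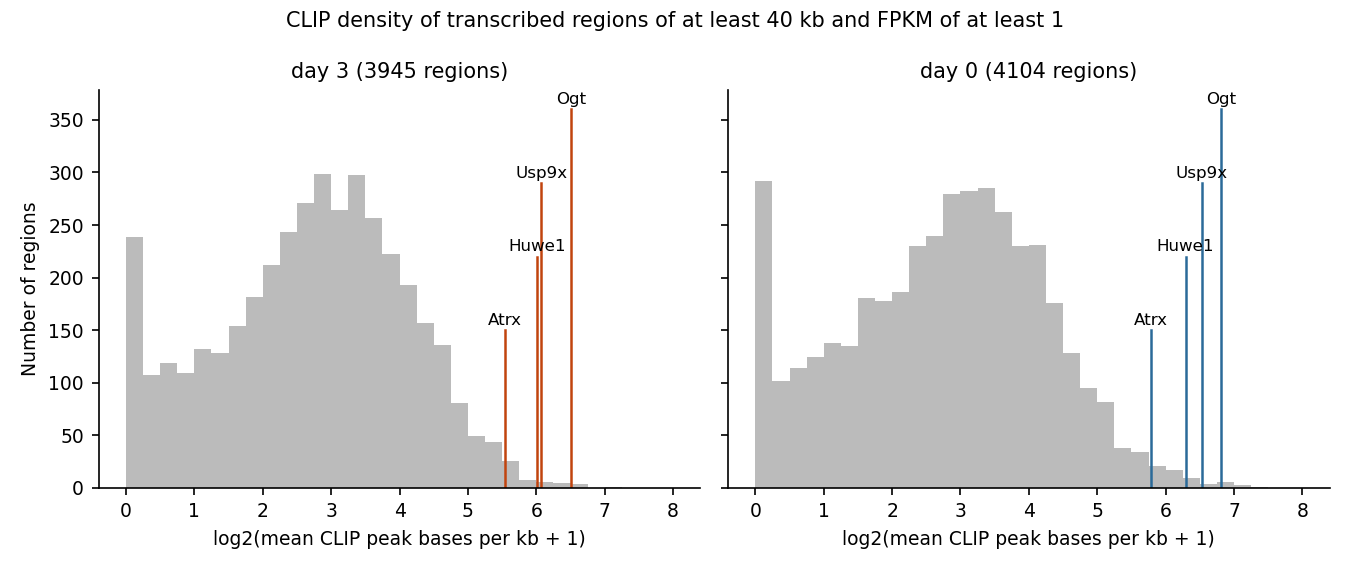
Distribution of CLIP density, as log2(mean peak bases per kb + 1) over 2 libraries, for all transcribed regions at least 40 kb long whose FPKM reached 1, at day 3 (left, 3945 regions) and day 0 (right, 4104 regions). Vertical lines mark the 4 genes, all in the right tail; line heights only separate the names.

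The density came from many peaks of ordinary score. The authors' peak scores have no stated unit and are used only to rank peaks within their own list. The median Huwe1 peak stood at the 42.5 and 39.1 percentiles of the day 3 lists, against the 55.3 and 51.8 percentiles of the day 0 lists, so the days did not overlap (40.8 ± 2.37 at day 3 and 53.5 ± 2.52 at day 0, SD, n = 2 each). The median Usp9x peak stood at the 52.7 and 49.7 percentiles at day 3, against 57.7 and 58.8 at day 0, again without overlap. The median Ogt peak stood at the 45.5 and 48.6 percentiles at day 3, against 52.3 and 60.2 at day 0. For Atrx the percentiles were 51.2 and 52.7 at day 3, against 50.2 and 54.5 at day 0, which overlapped. Thus typical peaks lay near the middle of their lists in all 4 genes. They stood somewhat lower in the day 3 lists than in the day 0 lists in Huwe1, Usp9x and Ogt. How many other regions separate the days in this way was not counted, so the differences are not read as particular to these genes. A two-sided exact permutation test gave p = 1 for Atrx and p = 0.333 for Huwe1, for Usp9x and for Ogt, the smallest p that 2 libraries against 2 allow, so the design cannot show these differences to exceed the spread. The single highest-scoring peak of each gene ranked between 206 and 2002 in its list.

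The question of whether CLIP coverage of these RNAs differed between differentiating and undifferentiated cells was put to scaled peak bases. Huwe1 had 1392 and 1492 scaled peak bases at day 3, against 1587 and 1521 at day 0. Both day 3 values lay below both day 0 values, by a small margin. The log2 difference was −0.11 (SE 0.23, 95% interval −0.66 to 0.44) and did not pass the test (limma, Benjamini-Hochberg adjusted p = 0.972). Usp9x had 958 and 1335 at day 3, against 1278 and 1502 at day 0, with overlapping days. Its log2 difference was −0.29 (SE 0.27, 95% interval −0.95 to 0.36; limma adjusted p = 0.852). Atrx had 1222 and 916 at day 3, against 1103 and 1069 at day 0. Its 2 day 3 libraries lay on either side of both day 0 libraries, and the log2 difference was −0.04 (SE 0.26, 95% interval −0.66 to 0.58; limma adjusted p = 0.999). Ogt had 482 and 835 at day 3, against 807 and 710 at day 0, and its 2 day 3 libraries likewise lay on either side of the day 0 libraries. Its log2 difference was −0.25 (SE 0.33, 95% interval −1.04 to 0.53; limma adjusted p = 0.910).

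None of the 4 genes was called, and the background share was also 0: limma called 0 of 12325 regions (0%) at an adjusted p under 0.05, while 899 (7.29%) had an unadjusted p under 0.05. The intervals above do not show that CLIP coverage was equal on both days: for Ogt they reach from −1.04 to 0.53 on the log2 scale. For Atrx and Ogt 1 day 3 library set the sign. Without the first day 3 replicate the Ogt difference was 0.14 and limma called 56 regions in all, and without the second day 3 replicate the Atrx difference was 0.17 and limma called 377 regions, none of the 4 genes among them in either case. With 1 library left at day 3 the spread came from the 2 day 0 libraries alone, and the lone library was assumed to vary like them.

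Many positions were found again between libraries in these RNAs. A peak was counted as found again when at least 1 base of it lay under a peak of another library. In Ogt 76.8% and 55.7% of the day 3 peaks were found again in at least 1 other library, against 83.5% and 67.2% of the day 0 peaks. In Usp9x the shares were 83.0% and 65.0% at day 3, against 78.1% and 56.4% at day 0. In Huwe1 they were 52.9% and 49.2% at day 3, against 59.9% and 49.2% at day 0. In Atrx they were 59.1% and 54.2% at day 3, against 54.2% and 45.6% at day 0. Over the 4 libraries this made 70.8% ± 12.1 for Ogt, 70.6% ± 12.1 for Usp9x, 53.3% ± 5.60 for Atrx and 52.8% ± 5.05 for Huwe1, against 26.4% ± 3.11 for all other regions (SD, n = 4 libraries each). The genes were chosen as densely covered and density raises this share, so their distance from the other regions is a description and not a finding about them. The day 3 and day 0 shares overlapped in Ogt, Usp9x and Huwe1, and in Atrx the lower day 3 share and the higher day 0 share were both 54.2%.

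**Figure D3:**
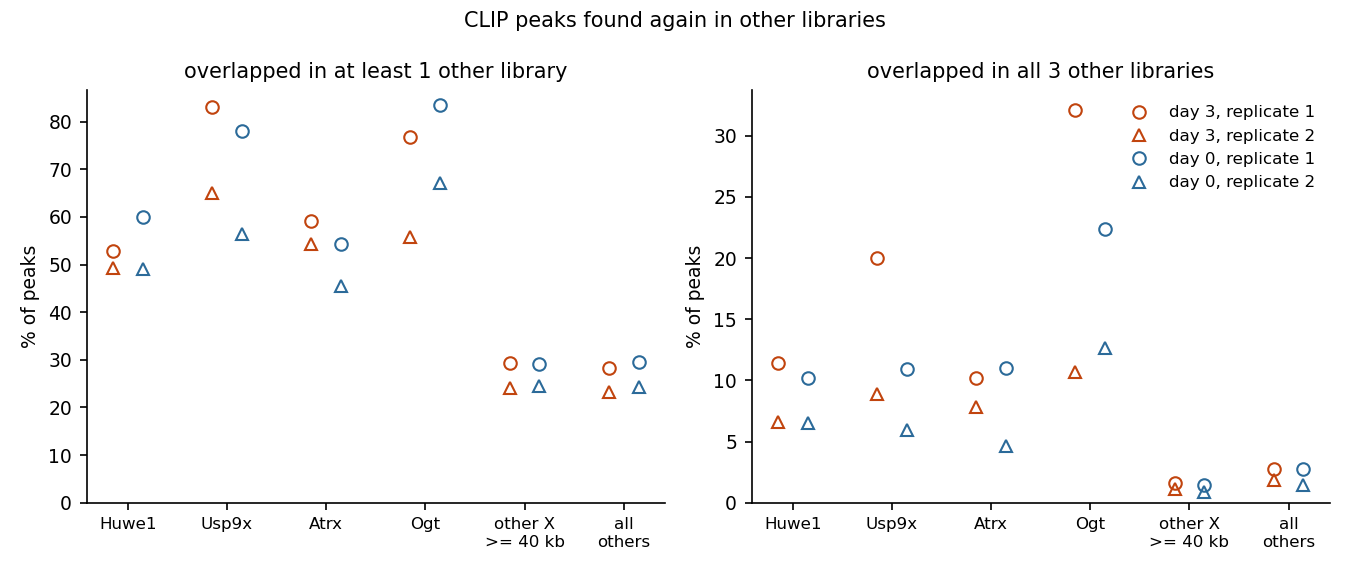
Percentage of CLIP peaks overlapped by a peak of at least 1 other library (left) and of all 3 other libraries (right), for each gene, for the other X-linked regions of at least 40 kb and for all other regions; day 3 libraries are orange and day 0 libraries blue. All 4 genes lie above both sets of other regions in every library, with Ogt the highest in the right panel.

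To set this against density within each gene, the share of peak bases under other libraries was set beside the share of the whole span that those libraries covered. In Ogt 59.1% and 49.2% of the day 3 peak bases lay under other libraries, while these covered 24.8% and 20.4% of the span. At day 0 the Ogt shares were 64.8% and 55.1%, with 23.8% and 20.9% of the span covered. In each library the peak bases of Ogt were thus under other libraries 2.38 to 2.72 times as often as the span as a whole. The ratios were 2.90 to 3.12 in Usp9x, 2.98 to 3.38 in Atrx and 2.21 to 2.45 in Huwe1. Ogt, which was among the highest in peaks found again, was thus not the highest by this ratio, and the highest value was in Atrx, the sparsest of the 4. These ratios are descriptions, with no test.

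Few bases were covered in all 4 libraries. Peaks of any library covered 26.9% of the Ogt span, 21.9% of Usp9x, 21.7% of Huwe1 and 15.5% of Atrx. The bases covered in all 4 numbered 388 in Ogt, 244 in Usp9x, 237 in Huwe1 and 229 in Atrx, in 19, 15, 19 and 13 separate segments. Some segments were tiny, down to 1 bp in Ogt and Huwe1, 2 bp in Usp9x and 4 bp in Atrx. Some lay only a few bases apart, so the counts are not numbers of distinct sites. The longest such segment in Ogt was 49 bp at chrX:98849726-98849774, 14.3 kb from the start. In Huwe1 it was 43 bp at chrX:148301164-148301206, 63.3 kb from the start. In Atrx it was 41 bp at chrX:103071487-103071527, 53.3 kb from the start, and a second segment of 38 bp lay next to it. In Usp9x it was 36 bp at chrX:12733179-12733214, 85.4 kb from the start, with another of 34 bp near the 5′ end, 2.8 kb from the start.

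The 4 transcripts were covered differently along their length. Ogt had one dense stretch in its first 15 kb and another at its 3′ end. Each span was divided into 10 equal parts, numbered from the start. Parts 3 and 4 of Ogt held 16.05% ± 3.08 and 19.4% ± 3.66 of its peak bases, and part 10 held 18.6% ± 4.76 (SD, n = 4 libraries each). Between them, parts 6, 7 and 8 held 3.68% ± 1.87, 4.32% ± 1.12 and 4.14% ± 1.40. Part 2 held 13.2% ± 3.58, and in the second day 0 replicate it exceeded part 4 (16.3% against 15.4%). In the other libraries part 4 was the higher. The 2 stretches recurred in every library, with part 10 at its lowest, 12.3%, in the second day 3 replicate. The stretch from 12 to 15 kb, chosen after its values were seen, held 13 and 14 peaks at day 3, against 20 and 16 at day 0. These were 23.2% and 10.7% of the Ogt peaks at day 3, against 23.5% and 11.9% at day 0, a smaller share in the longer lists. The same stretch held 11 of the 19 segments covered in all 4 libraries, and another 5 lay beyond 42 kb. In peaks per kb the 12 to 15 kb stretch had 4.33 and 4.67 at day 3, against 6.67 and 5.33 at day 0. The stretch from 15 to 42 kb had 0.667 and 2.04 at day 3, against 0.963 and 1.81 at day 0. The part before 12 kb was not counted in this way, so the contrast is with the sparse middle only. The first of the 2 rows into which the day 3 RNA list divides Ogt was 15.1 kb long, so the 12 to 15 kb stretch lay at its 3′ end.

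**Figure D4:**
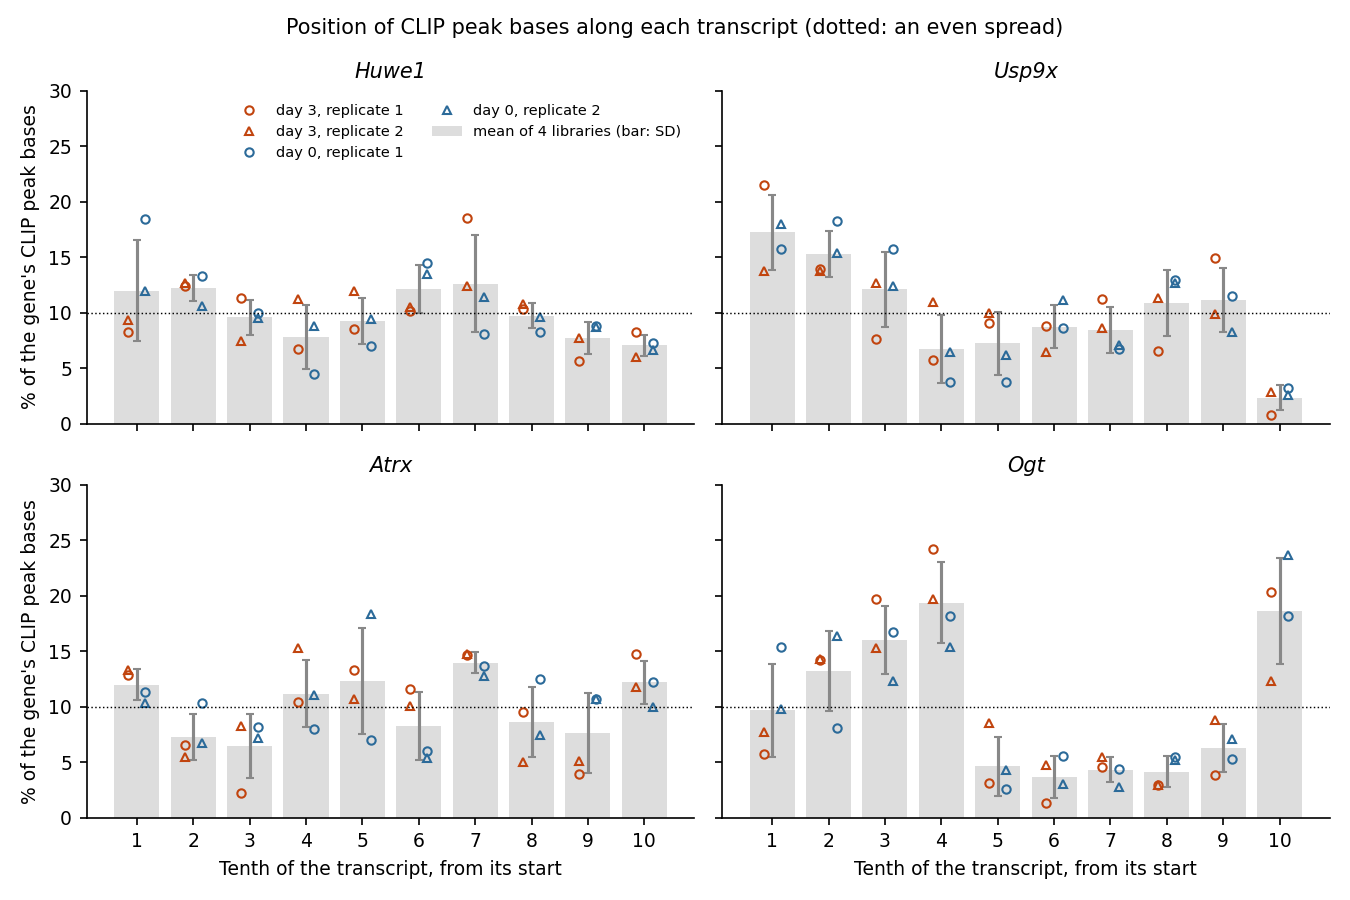
Share of each gene's CLIP peak bases in 10 equal parts of the transcript, counted from its start. Grey bars are means over 4 libraries with SD, symbols are single libraries (day 3 orange, day 0 blue) and the dotted line is an even spread of 10%; Ogt shows 2 dense stretches in all 4 libraries and Usp9x has 2.34% in part 10.

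Usp9x was richest at its 5′ end and nearly empty at its 3′ end. Parts 1, 2 and 3 held 17.2% ± 3.34, 15.3% ± 2.08 and 12.1% ± 3.34 of its peak bases, and part 10 held 2.34% ± 1.10 (SD, n = 4 libraries each). The longest stretch with no peak in any library was 5.4 kb and began 97.3 kb from the Usp9x start. The last 7.71 kb of Usp9x was part of the listed RNA at day 3, whereas the day 0 row stopped before it. That end, 7.51% of the span, held 1 and 2 peaks at day 3, against 2 and 3 at day 0.

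Huwe1 and Atrx were covered more evenly at the scale of these 10 parts. The 10 parts of Huwe1 held 7.03% to 12.6% of its peak bases by the mean over 4 libraries, and those of Atrx 6.47% to 14.0%. On a finer scale Atrx had a dense stretch, since its 3 densest bins of 1 kb lay side by side from 52 to 55 kb. In order they held 3.47% ± 2.20, 3.19% ± 0.376 and 3.17% ± 2.31 of its peak bases (SD, n = 4 libraries each). An even share of a bin was 0.758%. The densest bin of Huwe1, at 79 to 80 kb, held 2.62% ± 0.985. These bins were picked as the highest. Between its start and its midpoint Huwe1 held 47.1% and 52.7% of its peak bases at day 3, against 53.2% and 50.2% at day 0. Over the same stretch Atrx held 45.5% and 53.1% at day 3, against 44.8% and 53.6% at day 0. Both genes thus lay on either side of an even division. Ogt and Usp9x had more than an even share before the midpoint in each of the 4 libraries. For Ogt the share before the midpoint was 67.0% and 65.7% at day 3, against 61.1% and 58.2% at day 0. For Usp9x it was 57.8% and 61.0% at day 3, against 57.1% and 58.2% at day 0. The Ogt values at day 3 lay above both day 0 values, and no test was made of this difference.

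The nuclear RNA lists gave values of the same order on both days for Atrx and Ogt. These too come from rows that pool transcripts, 10 at day 3 and 20 at day 0 for Atrx, and 3 and 4 in the 2 Ogt rows at day 3 against 13 at day 0, so short transcripts can have moved them. The values are the authors' per-transcript abundances, taken here as FPKM, and with 1 library per day there is no replicate check and no test. Atrx had 17.8 FPKM at day 3, against 11.9 FPKM at day 0, a log2 difference of 0.55 on the log2(FPKM + 1) scale. Ogt had 22.8 FPKM at day 3, in the higher of its 2 rows (the other had 19.1), against 37.7 FPKM at day 0, a log2 difference of −0.70. Over 22035 regions listed on both days the median log2 difference was 0.22. Of these, 18.8% were higher at day 3 by at least 1 on the log2 scale and 11.8% lower by at least 1. On the strand opposite to Atrx a short row was listed on both days, 225 bp with 235 FPKM at day 3, against 206 bp with 135 FPKM at day 0. Neither Atrx nor Ogt passed a log2 difference of 1, and RNA in a bulk sample cannot tell fewer cells from less RNA per cell.

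For Huwe1 and Usp9x 1 day each had a value far outside that order. Usp9x had 31.9 FPKM at day 3 and was listed at 1101 FPKM at day 0, in a row pooling 34 transcripts. Huwe1 was listed at 33997 FPKM at day 3, in a row pooling 13 transcripts, against 35.1 FPKM at day 0. Values this high were nearly always found in pooled or very short rows: of 761 rows of at least 1000 FPKM at day 3, 10 were single transcripts of at least 300 bp, and of 1534 at day 0, 8 were. For that reason neither high value is taken as a level of RNA. At day 0 the Huwe1 RNA was listed in pieces, with 1 long row of 100.2 kb and 17 single rows of 6.83 to 27.4 FPKM (median 10.4). The 31.9 kb before the long row, which is listed as short pieces at day 0, nevertheless held 36 and 70 CLIP peaks at day 3, against 64 and 92 at day 0. This was 22.9% and 27.3% of the Huwe1 peaks at day 3, against 34.2% and 26.0% at day 0, on 24.2% of its span.

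On DNA, 2 of the 3 ChIP libraries listed 0 to 4 CTCF peaks inside each gene. Huwe1 held 0 ChIP peaks at day 3, against 2 and 21 at day 0. Usp9x held 2 at day 3, against 4 and 18 at day 0. Atrx held 3 at day 3, against 4 and 13 at day 0. Ogt held 1 at day 3, against 2 and 5 at day 0. In every gene the second day 0 replicate stood apart from the other 2 libraries, and it was also the longest list. With 1 library at day 3, the days were not tested.

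The excess in that library was large even for its length. In it Usp9x had 17.5 peaks per 100 kb, Huwe1 15.9, Ogt 11.3 and Atrx 9.85, against a median of 3.26 over 197 X-linked regions of at least 40 kb. Among those regions Usp9x ranked 2 and Huwe1 3, whereas Huwe1 ranked 109 in the first day 0 replicate. There Ogt ranked 22, Usp9x 38 and Atrx 54, so these genes were not sparse for their length. At day 3 Atrx ranked 65, Ogt 67, Usp9x 83 and Huwe1, with 0 peaks, 162. Peaks of the second replicate covered 42.4% of the Huwe1 span, 31.3% of Usp9x, 20.1% of Ogt and 18.2% of Atrx. The median peak in each gene scored below the middle of that list, at the 27.6 percentile in Huwe1, 33.9 in Usp9x, 20.5 in Atrx and 37.2 in Ogt. The highest peak stood at the 57.5 percentile in Huwe1, against 90.7 in Usp9x, 81.7 in Atrx and 80.0 in Ogt. Across the 197 regions ChIP peaks per 100 kb and CLIP density of the same day had a Spearman correlation of 0.29 at day 3, against 0.28 and 0.55 in the day 0 replicates. These regions share their libraries and their transcription, and the coefficients are descriptions.

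**Figure D5:**
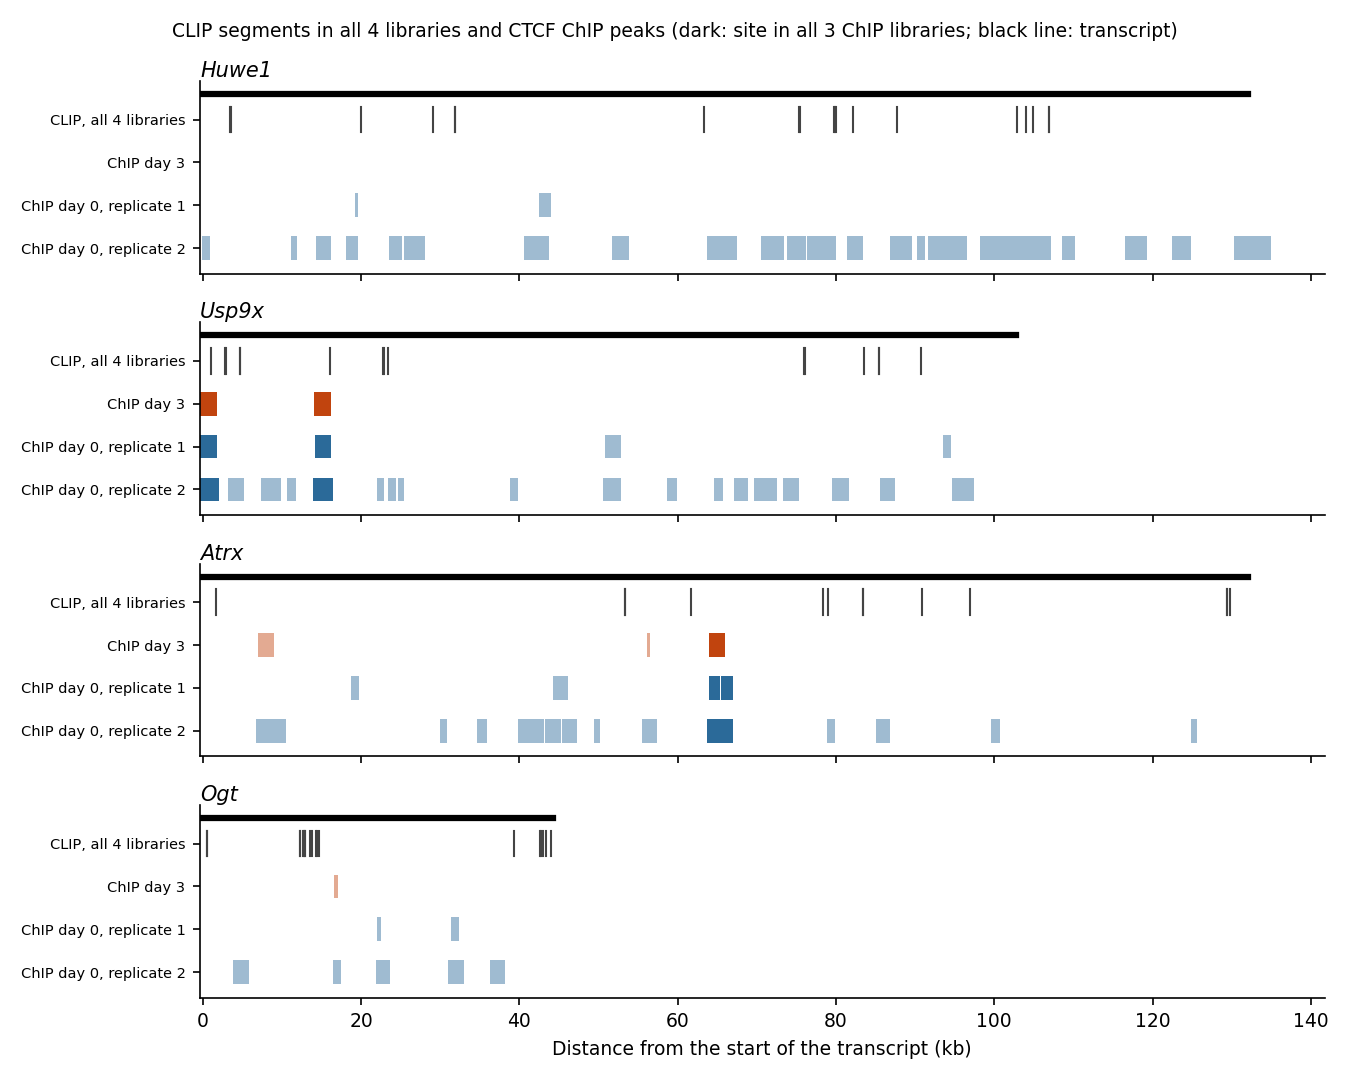
Map of each transcript (black line) by distance from its start in kb, with the CLIP segments covered in all 4 libraries (grey ticks) and the CTCF ChIP peaks of the day 3 library (orange) and the 2 day 0 libraries (blue). Dark boxes are sites with a peak in all 3 ChIP libraries: 2 in Usp9x, 1 in Atrx and 0 in Huwe1 and Ogt.

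CTCF sites seen in all 3 ChIP libraries were found in Usp9x and Atrx. The first of the 2 Usp9x sites lay over its start, where peaks reached 1.76 kb into the gene at day 3, against 1.75 and 2.09 kb at day 0. Its scores stood at the 80.6 percentile at day 3, against the 73.9 and 70.4 percentiles at day 0. The other Usp9x site lay 14 to 16 kb from the start, at the 91.7 percentile at day 3, against 80.7 and 90.7 at day 0. The Atrx site lay 64 to 67 kb from its start, near the middle of the transcript. No site in Huwe1 or Ogt was shared by all 3. At the gene starts, within 1 kb, Usp9x was the only one of the 4 with a peak in every library. Huwe1 had one in the second day 0 replicate alone, at the 0.288 percentile of its list, and Atrx and Ogt had none. Of the 197 X-linked regions, 15.2% had a ChIP peak within 1 kb of the start at day 3, against 11.2% and 24.9% at day 0.

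With 2 of the 3 ChIP lists few CLIP peaks on these RNAs lay over a CTCF peak on DNA, and with the third, the second day 0 replicate, many did in Huwe1 and Usp9x. With the day 3 ChIP list, 0% of the Huwe1 CLIP peaks lay over a ChIP peak in either replicate. The shares were 8% and 3.27% for Usp9x, 1.57% and 1.31% for Atrx and 1.79% and 0% for Ogt. Over all same-strand peaks in transcribed regions the shares were 4.83% and 4.91%. In Usp9x the ChIP peaks covered 3.78% of the span, between the shares of the 2 libraries. With the first day 0 ChIP list, 7.53% and 8.58% of the Usp9x CLIP peaks lay over a ChIP peak, on 6.59% of its span. Of the peaks in all transcribed regions 4.85% and 4.75% did. With the second day 0 list the shares were much higher, at 48.7% and 46.9% for Huwe1, on 42.4% of its span. Usp9x had 40.4% and 37.0% with that list, on 31.3% of its span. Both genes lay above the 13.2% and 12.8% of peaks in all transcribed regions and somewhat above the share of their span that was covered. For Atrx the shares were 14.4% and 19.2%, on 18.2% of its span. For Ogt that list gave 7.06% and 13.4%, below the 20.1% of the span it covered. Of the 15 Usp9x segments covered in all 4 CLIP libraries, 2 lay under the sites common to all ChIP libraries, 1 at each site. They were short, 3 bp at the start and 11 bp at the other site. Of the segments of Huwe1, Atrx and Ogt, 0 lay under a ChIP peak of the day 3 or of the first day 0 library. Under the peaks of the second day 0 library lay 11 of the 19 Huwe1 segments, 6 of the 15 Usp9x segments, 1 of the 13 Atrx segments and 0 of the 19 Ogt segments.

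The authors also listed peaks assigned to the cas or the mus allele, the 2 parental genomes of the hybrid cells. In Huwe1 12 cas and 9 mus CLIP peaks were listed in the first day 3 replicate and 10 cas and 12 mus in the second. At day 0 there were 15 cas and 8 mus in the first replicate and 37 cas and 17 mus in the second. The last was a cas share of 68.5% (exact Clopper-Pearson 95% interval 54.4% to 80.5%), the only one of the 16 intervals of genes and libraries that left out an even division. The X chromosome as a whole had cas shares of 52.4% and 48.7% at day 3, against 47.2% and 49.5% at day 0.

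In Atrx the cas peaks outnumbered the mus peaks in each library, with 19 to 10 and 14 to 8 at day 3, against 16 to 10 and 36 to 29 at day 0. In Usp9x the cas peaks were more numerous at day 3, with 8 to 3 and 14 to 11, and the mus peaks at day 0, with 11 cas to 18 mus and 33 cas to 45 mus. The cas shares of Usp9x were 72.7% and 56.0% at day 3, against 37.9% and 42.3% at day 0. The days did not overlap, although each interval included an even division. How many other regions separate the days in this way was not counted. In Ogt there were 7 cas and 2 mus, and 7 of each, at day 3, against 8 cas and 3 mus, and 14 cas and 12 mus, at day 0. Where allelic peaks of 2 libraries overlapped in these genes, 65 of 122 pairs had the same allele and 57 the other. In Usp9x 21 of 44 pairs had the same allele and 23 the other. The allele of a peak was thus repeated little more often than not, and the allelic shares are given as counts without a test between days.

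The distances to the regions most like each gene were taken from the 4 scaled CLIP values and the 2 FPKM values, as the smallest Euclidean distance over 6 log2(value + 1) values, among regions of at least 40 kb. The region nearest to Atrx was chr13:114584307-114947669 on the plus strand, at a distance of 0.50. The one nearest to Ogt was chr11:62129240-62271450 on the minus strand, at 0.89. Atrx and Ogt lay 2.24 apart, so each had nearer regions on other chromosomes than the other gene. The region nearest to Huwe1 was chr1:183832503-183950111 on the minus strand, at 0.74, and it too was listed with a high pooled value at day 3, 23930 FPKM. For Usp9x it was chr1:91350909-91791857 on the plus strand, at 1.38, and it was listed at 624 FPKM at day 0. Both matches therefore rest in part on the pooled values that are not taken as RNA levels, and say little of likeness in RNA. The files give these regions no gene names.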

How the data were processed

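The series was processed on mm9 by the authors; the submitters' processing notes name, with no roles, Cufflinks 2.1.1, TopHat2 2.0.8 and Novoalign 3.00.03, the trimmers cutadapt 1.0 and Trim Galore 0.3.3, and bedtools 2.17.0 beside SAMtools 0.1.18. The sources used here name no peak caller. The deposited CLIP and ChIP lists hold 1 score per peak, the authors' own, per library. The deposited RNA values have no named unit and are taken as FPKM from the Cufflinks identifiers; a row that pools transcripts has 1 value, which can be set by very short transcripts. Read depth is unknown. Per the labels, the RNA libraries kept strand.

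The 4 genes and all lists, stretches and tests were chosen with earlier results of these data known. RNA rows were merged by strand into 42917 regions. CLIP peak bases per Mb of list were tested on the log2(value + 1) scale in the 12325 regions that had a peak in 2 or more libraries. The test was limma 3.58.1 (trended prior, day 3 minus day 0, both days in 1 fit, no block) with Benjamini-Hochberg adjustment. It was also run on simulated data, with changes far larger than the differences in these genes. That check does not show whether differences of their size could be found. FPKM came from rows of at least 300 bp (the highest row per gene). Overlap meant at least 1 base, gene starts a window of 1 kb, and intervals were exact at 95% and cover counting error only. All 4 genes are described, with their longest segments covered in all libraries and the ChIP sites of all 3 libraries. Tools were Python 3.11.15, pandas 2.3.3, SciPy 1.17.1 and R 4.3.3. The allelic lists were used for positions only. The alternatives tried were other pseudocounts, filters, scalings and overlaps, only the peaks above their list's median score, the replicate number as a block and each library left out.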

Additional observations from a re-analysis of the deposited data

How the results depend on the processing

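With limma, the number of regions called was 1 when the number of peaks replaced peak bases and ranged from 0 to 377 when 1 CLIP library was left out, against 0 in the reported fit and under each of the other alternatives; none of the 4 genes was called in any. With a library left out 1 day has a single library, which is assumed to vary like the 2 of the other day. Left-out libraries gave log2 differences of −0.16 to −0.06 for Huwe1, −0.53 to −0.05 for Usp9x, −0.25 to 0.17 for Atrx and −0.65 to 0.14 for Ogt, so the sign turned in Atrx (0.17) and Ogt (0.14), and no other alternative turned a sign; the cause was not tested. The merged region in place of the span gave the same values, since they coincide. With the replicate number as a block no region was called and the adjusted p was 0.886 to 0.997 for the genes. The numbers do not pair the samples (r = 0.018 across 12325 regions), so the block is given here only.

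With only the peaks above their list's median score, day 3 peak bases per kb were 35.3 in Huwe1 and 30.5 in Atrx, fewer by construction, and Huwe1 peaks found again fell to 45.4%. When an overlap had to cover at least 0.5 of the peak, the shares found again were 37.8% in Huwe1, 53.9% in Usp9x, 39.1% in Atrx and 54.5% in Ogt. Without 1 library they were 37.5% to 47.9% in Huwe1, 57.1% to 60.7% in Usp9x, 39.3% to 46.8% in Atrx and 56.5% to 64.4% in Ogt. With the first replicates alone, an alternative chosen after seeing the data, they were 23.3%, 34.6%, 26.9% and 43.8% in Huwe1, Usp9x, Atrx and Ogt. Fewer libraries offer fewer overlaps by construction.

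The RNA log2 difference was 0.58 in Atrx and −0.73 in Ogt with a pseudocount of 0.1, and −0.78 in Ogt with a length-weighted mean of its rows. CTCF sites common to the ChIP libraries ranged, with 1 library left out, from 0 to 2 in Huwe1, 2 to 3 in Usp9x, 1 to 3 in Atrx and 0 to 2 in Ogt; the Atrx site was not kept (0) among peaks above the median score, nor was the Huwe1 start peak (0), and a 5 kb window gave Ogt 1 library with a peak near its start. Of 155 alternative values, 117 kept their direction and their side of the threshold, or stayed within the spread or within 1.5 times the count. Part of this was fixed in advance. The merged region repeats the span, and the filters on libraries and the block cannot change a log2 difference, only its adjusted p. The tally is thus no measure of how firm the results are. The 2 CLIP libraries per day, 1 RNA library per day and 1 day 3 ChIP library limit every comparison of days.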
